A study of Homo sapiens with 6 samples.

Results

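The genes described here encode the matrix metalloproteinases (MMP), the ADAM proteases, the ADAMTS proteases and the tissue inhibitors of metalloproteinases (TIMP). They were chosen by symbol, as every MMP, ADAM or ADAMTS name followed by a number (with an end letter allowed for MMP) and TIMP1 to TIMP4, which gave 69 of the 27980 symbols in the count files. Of these 69 genes, 24 are MMP, 22 ADAM, 19 ADAMTS and 4 TIMP genes. RNA of 6 libraries was sequenced, all from RKO, a human colon carcinoma line described as poorly differentiated. Of these, 3 came from cells stably expressing a short hairpin RNA directed at TRIP6 from a lentivirus (shTRIP6, genotype labelled TRIP6 knockdown), and 3 from cells expressing a scrambled hairpin from a lentivirus (shControl, genotype labelled WT). Both groups were infected and then selected with puromycin at 5 µg/ml, starting 36 h after infection and lasting 2 to 3 weeks. Neither the number of hairpin sequences, nor whether the lines were clones or pools, nor whether both lines came from a single stock of cells is stated in the labels.

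MMPs cut collagens, laminins, proteoglycans and many other proteins outside the cell, and each is made as an inactive precursor. Some are secreted, while the membrane-type MMPs stay on the cell surface. ADAMs are mostly membrane proteins that release the outer parts of growth factors, cytokine receptors, Notch and adhesion molecules, a step called shedding, and some ADAMs have no working catalytic site. ADAMTS proteases are secreted, bind the matrix through thrombospondin repeats, and cut proteoglycans, procollagens and microfibril proteins. TIMPs block these enzymes by binding their active sites, and the expression of the whole system is linked to invasion and tissue remodelling in carcinomas. Transcript levels do not show how much of an enzyme is activated or inhibited.

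The libraries held 31096598 to 32089298 counts in shTRIP6 and 29605764 to 30949334 counts in shControl, and 1 count equalled 0.0314 to 0.0336 CPM, which is the count scaled to the library size. Replicates are labelled biological, with no word on separate cultures, and p-values measure only the spread between these libraries. TRIP6, which encodes a LIM-domain adaptor protein, stood at 19.8, 19.4 and 19.5 CPM in the shTRIP6 libraries, against 73.9, 86.5 and 80.6 CPM in the shControl libraries, or 24.3% of the control mean. Of the epithelial markers of the labelled cell type, KRT8 and KRT18 averaged 1720 and 885 CPM in shTRIP6 and 1804 and 871 CPM in shControl, and neither was called. KRT19 was the only epithelial marker called, at 50.7 ± 3.15 CPM in shTRIP6 and 13.8 ± 2.27 CPM in shControl (SD, n = 3 each; log2 fold change 1.87, edgeR adjusted p = 7.84e-12). Too low to be tested were CDH1, at 0.0212 CPM in shTRIP6 and 0.273 CPM in shControl, and CDX2, at 0.0850 CPM in shTRIP6 and 0 in shControl. EPCAM and VIL1 had 0 counts in all 6 libraries, which allows up to 0.0318 CPM in shTRIP6 and 0.0327 CPM in shControl. The summed level of 10 fibroblast markers was 160 to 180.3 CPM in shTRIP6 and 116 to 129 CPM in shControl, with THY1 and PDGFRB higher and 5 others, among them FAP, lower. DCN and POSTN were at 0 in shTRIP6. Endothelial markers (6 genes) summed to 0.345 to 0.450 CPM in shTRIP6 and 2.29 to 2.57 CPM in shControl, with PECAM1 at 0 in shTRIP6 and KDR at 0 in shControl, and leukocyte markers (7 genes) summed to 236 to 245 CPM in shTRIP6 and 187 to 236 CPM in shControl, with PTPRC and CD3E at 0 in shTRIP6. Both leukocyte markers high enough to be tested were higher in shTRIP6. CD68, which made up nearly all of the sum, averaged 239 ± 4.68 CPM in shTRIP6 and 208 ± 24.9 CPM in shControl (edgeR adjusted p = 0.0118), and CD14 averaged 2.22 ± 0.540 CPM in shTRIP6 and 0.520 ± 0.189 CPM in shControl (log2 fold change 2.08, edgeR adjusted p = 7.40e-05). Histone genes took 0.0139% to 0.0151% of counts in shTRIP6 and 0.0407% to 0.0433% in shControl. The part of these markers and shares in the results was not tested, and in bulk RNA fewer cells of a type and less RNA per cell cannot be told apart.

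The question of the comparison is how expression differs in cells depleted of TRIP6. Of the 69 genes, 40 passed the low-count filter and were tested, and 30 of these 40 were called at an adjusted p under 0.05 in edgeR's quasi-likelihood test (11 higher and 19 lower in shTRIP6). The 30 calls were 75.0% of those tested, beside 60.1% of all 15473 genes tested. Over all genes tested, 29.0% were called higher and 31.2% lower. The median log2 fold change was -0.35 over the 40 genes and 0.00 over all genes tested. The values of the groups did not overlap in 30 of the 40 genes, or 75.0%, beside 65.3% of all genes. In 7 of the 19 lower genes no shTRIP6 library was over the filter (ADAMTS12, ADAMTS14, ADAMTS15, MMP1, MMP8, MMP28 and TIMP4). These 7 genes were tested through their shControl level alone. ADAM12 and ADAM21, each with some shTRIP6 libraries under the filter, also relied on their shControl level. In the same way MMP11, with only shControl replicate 2 over the filter in its control group, relied on its shTRIP6 level. The counts are therefore given as a description.

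**Figure D1:**
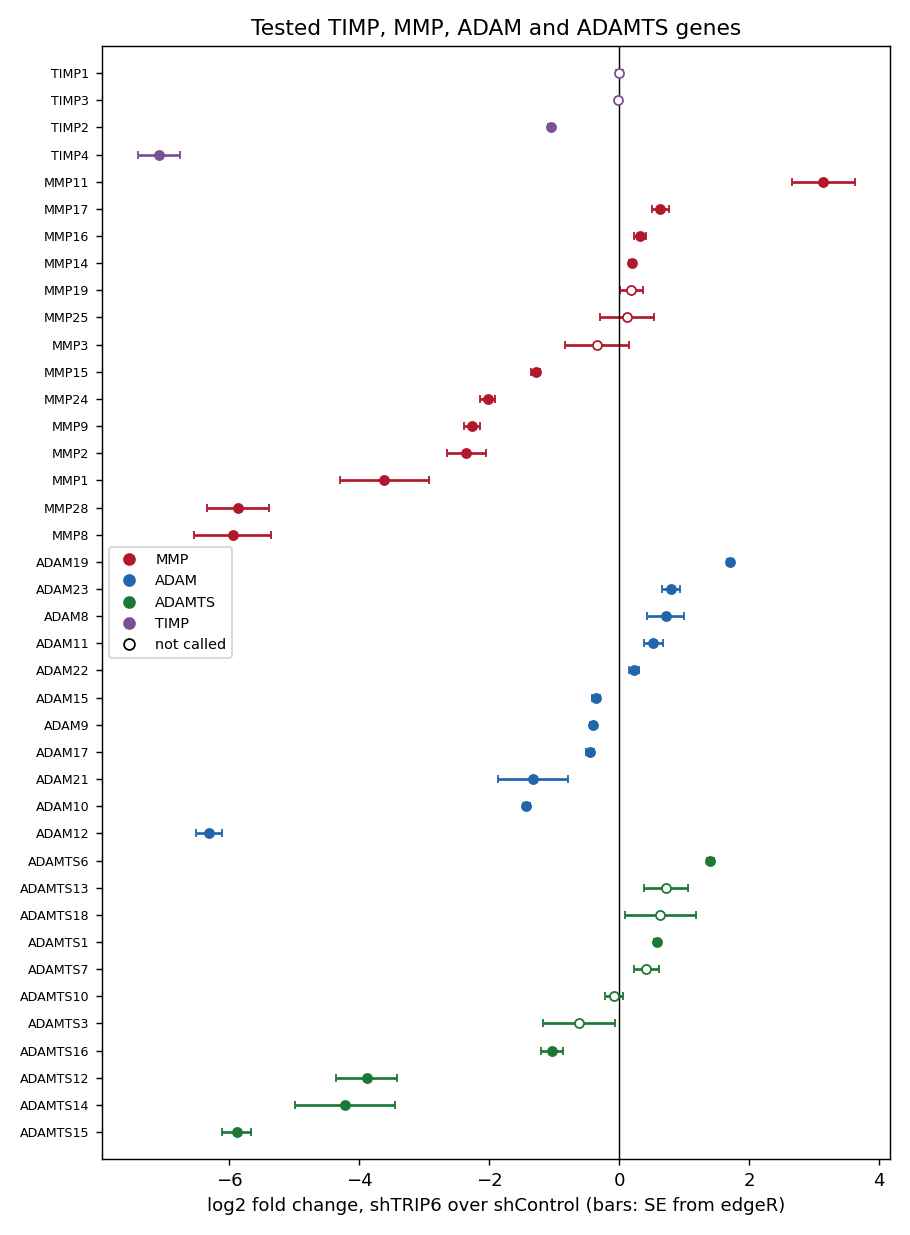
Log2 fold change of shTRIP6 over shControl (x axis) for the 40 tested genes, grouped by family and ordered within each family, with the SE from edgeR as bars and open points for genes not called. TIMP4, ADAM12, MMP8, ADAMTS15 and MMP28 lie farthest to the left, between -7.09 and -5.87, and MMP11 lies farthest to the right at 3.14.

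Among the inhibitors, TIMP2 and TIMP4 were lower in shTRIP6, while TIMP1 and TIMP3 were not called. TIMP3, which stays bound to the matrix and blocks ADAM17 and ADAMTS proteases as well as MMPs, stood at 1996, 2031 and 1987 CPM in shTRIP6, against 2089, 1949 and 2027 CPM in shControl. These values overlapped, with a log2 fold change of -0.01 ± 0.04 (SE; edgeR adjusted p = 0.791). TIMP1, a broad secreted MMP inhibitor, stood at 129, 123 and 121 CPM in shTRIP6, against 127, 119.8 and 125 CPM in shControl, and its values overlapped as well (log2 fold change 0.00 ± 0.05, edgeR adjusted p = 0.946).

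TIMP2, which inhibits MMPs and also bridges MMP14 to the MMP2 precursor for its activation, stood at 581, 607 and 601 CPM in shTRIP6, against 1287, 1179.9 and 1252 CPM in shControl. Every shTRIP6 library lay below every shControl library, at 48.1% of the control mean, and the log2 fold change was -1.06 ± 0.04 (edgeR adjusted p = 9.70e-14). TIMP4, the inhibitor with the most restricted tissue distribution, stood at 0.126, 0 and 0.0965 CPM in shTRIP6, against 11.5, 9.69 and 10.8 CPM in shControl. This was 4, 0 and 3 counts in shTRIP6 and 341, 302 and 333 counts in shControl, and the log2 fold change was -7.09 ± 0.33 (adjusted p = 9.89e-13). TIMP4 (chr3:12153051-12159351, minus strand, GRCh38, protein-coding) lies inside SYN2, with 10.3% of its exon bases shared with SYN2 exons on the opposite strand, and SYN2 itself averaged 0 CPM in shTRIP6 and 0.290 CPM in shControl.

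The transmembrane MMPs divided by gene, with MMP14 and MMP16 higher and MMP15 and MMP24 lower in shTRIP6. MMP14, the main activator of MMP2 and itself a collagenase at the cell surface, stood at 267, 270.1 and 258 CPM in shTRIP6, against 236, 229.5 and 226 CPM in shControl. The groups did not overlap, but the rise was small, with a log2 fold change of 0.20 ± 0.04 (edgeR adjusted p = 6.05e-04). MMP15, a close relative of MMP14, stood at 24.0, 24.3 and 22.6 CPM in shTRIP6, against 55.1, 59.9 and 57.9 CPM in shControl (log2 fold change -1.29 ± 0.07, edgeR adjusted p = 9.31e-12). MMP24, a membrane-type MMP known mainly from neurons, stood at 7.63, 8.63 and 6.75 CPM in shTRIP6, against 27.9, 34.0 and 31.9 CPM in shControl. Its libraries were fully separated, with a log2 fold change of -2.03 ± 0.11 (adjusted p = 9.44e-12). MMP16, which also activates MMP2, averaged 20.6 ± 1.64 CPM in shTRIP6 and 16.4 ± 0.733 CPM in shControl (SD, n = 3 each; log2 fold change 0.32, edgeR adjusted p = 5.48e-03).

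Of the MMPs held by a lipid anchor, MMP17 stood at 19.0, 18.8 and 17.5 CPM in shTRIP6, against 9.51, 11.4 and 14.7 CPM in shControl. Its groups did not overlap although the shControl values spread widely, and the log2 fold change was 0.63 ± 0.13 (edgeR adjusted p = 2.86e-04). MMP25, known from leukocytes, averaged 0.922 ± 0.386 CPM in shTRIP6 and 0.848 ± 0.225 CPM in shControl and was not called (adjusted p = 0.822).

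Both gelatinases, which cut denatured collagen and basement membrane collagen, were lower in shTRIP6. MMP9 (chr20:46008908-46016561, plus strand, protein-coding) stood at 4.27, 3.87 and 3.41 CPM in shTRIP6, against 17.3, 19.9 and 18.3 CPM in shControl. MMP2 (chr16:55389700-55506691, plus strand, protein-coding) stood at 0.565, 0.704 and 0.804 CPM in shTRIP6, against 4.44, 2.70 and 3.49 CPM in shControl. Both were at about the same fraction of control in shTRIP6, MMP9 at 20.8% and MMP2 at 19.5%, with log2 fold changes of -2.26 ± 0.13 and -2.35 ± 0.30 (edgeR adjusted p = 2.08e-11 and 1.51e-06). The 3 genes known as the MMP14, TIMP2 and MMP2 activation complex therefore did not move together, since MMP14 was higher while TIMP2 and MMP2 were lower.

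The collagenases MMP1 and MMP8, which cut fibrillar collagen, were both lower. MMP8, also called neutrophil collagenase, stood at 0.126, 0 and 0 CPM in shTRIP6, against 3.53, 2.38 and 2.72 CPM in shControl (log2 fold change -5.95 ± 0.59, edgeR adjusted p = 6.18e-08). All 4 of its shTRIP6 counts were in replicate 1, and without that library shTRIP6 stood at 0 and the fitted log2 fold change was -9.47, which is no bound. MMP1, interstitial collagenase, stood at 0.157, 0.128 and 0 CPM in shTRIP6, against 0.538, 1.99 and 1.10 CPM in shControl (log2 fold change -3.61 ± 0.68, edgeR adjusted p = 1.47e-04). Its shControl libraries spread widely, but each lay above all shTRIP6 libraries. The stromelysin gene MMP3, next to MMP1 on chromosome 11, averaged 0.446 ± 0.0539 CPM in shTRIP6 and 0.569 ± 0.281 CPM in shControl, with overlapping libraries (adjusted p = 0.564). MMP28, epilysin, an MMP activated inside the cell by furin-type proteases, stood at 0.157, 0 and 0.0322 CPM in shTRIP6, against 3.97, 4.04 and 3.82 CPM in shControl (log2 fold change -5.87 ± 0.47, edgeR adjusted p = 4.03e-09). Replicate 1 held 5 of its 6 shTRIP6 counts, and the log2 fold change without that library was -7.61.

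MMP11, stromelysin-3, also activated by furin and in carcinomas known mainly from the stroma, was the largest rise among the 40 genes. It stood at 1.91, 1.44 and 1.64 CPM in shTRIP6, against 0.101, 0.353 and 0.0970 CPM in shControl, without overlap (log2 fold change 3.14 ± 0.48, edgeR adjusted p = 1.69e-05). The log2 fold change was 4.02 without shControl replicate 2, the highest of its group. That library alone in shControl was over the low-count filter of about 0.322 CPM, so MMP11 was tested through its shTRIP6 level. MMP11 shares 4.21% of its exon bases with CHCHD10 on the opposite strand, which averaged 39.1 CPM in shTRIP6 and 24.0 CPM in shControl. MMP19, a secreted MMP of wide distribution, averaged 5.53 ± 0.340 CPM in shTRIP6 and 4.85 ± 1.14 CPM in shControl, with overlapping libraries (adjusted p = 0.389).

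**Figure D2:**
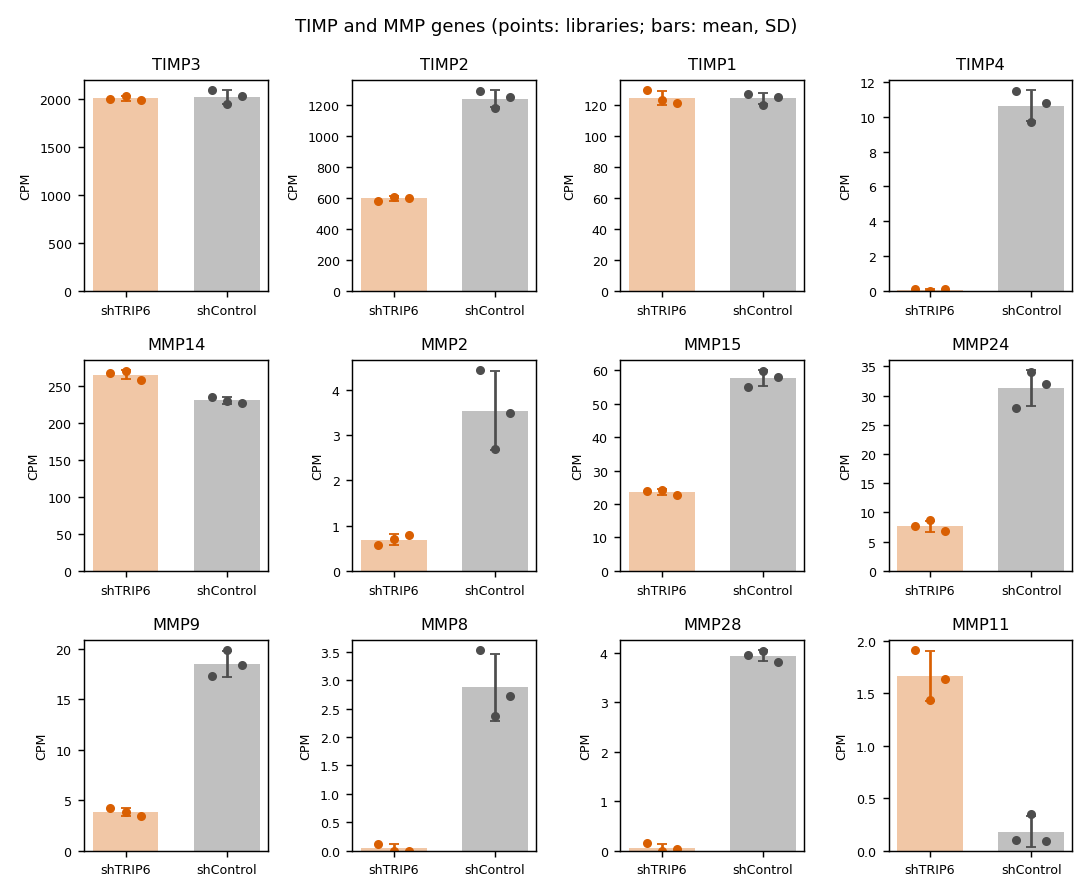
CPM of 4 TIMP and 8 MMP genes in each library (points), with the group mean as a bar from 0 and the SD as an error bar, shTRIP6 at left and shControl at right in each panel. TIMP3 and TIMP1 overlap between the groups, MMP14 and MMP11 are higher in shTRIP6, and the other 8 genes are lower in shTRIP6 without overlap.

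All 11 tested ADAM genes were called, 5 higher and 6 lower in shTRIP6, beside 60.1% of all genes tested. The groups did not overlap in 10 of the 11, or 90.9%, beside 65.3% of all genes. Without shTRIP6 replicate 1, or without shControl replicate 3, the higher calls were 3 in place of 5, since ADAM8 and ADAM22 then missed the threshold. ADAM10, the sheddase that cuts Notch receptors, E-cadherin and the amyloid precursor protein, stood at 55.5, 57.7 and 61.0 CPM in shTRIP6, against 156, 157 and 157 CPM in shControl. The shControl libraries were almost equal and lay far above the shTRIP6 libraries, and the log2 fold change was -1.43 ± 0.05 (edgeR adjusted p = 2.95e-14). ADAM17, the sheddase of tumour necrosis factor and several epidermal growth factor receptor ligands, stood at 46.4, 50.4 and 51.8 CPM in shTRIP6, against 67.8, 65.2 and 69.8 CPM in shControl. This was a smaller fall, of -0.45 ± 0.06 on the log2 scale (adjusted p = 4.73e-06), and 12.3% of the exon bases of ADAM17 are shared with IAH1 on the opposite strand, which averaged 30.2 CPM in shTRIP6 and 21.1 CPM in shControl.

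ADAM9, a widely expressed sheddase, averaged 262 ± 8.25 CPM in shTRIP6 and 347 ± 3.70 CPM in shControl (log2 fold change -0.41, edgeR adjusted p = 1.51e-07). ADAM15, which binds integrins through its disintegrin domain, stood at 133, 140.3 and 131 CPM in shTRIP6, against 149, 187 and 181 CPM in shControl. Its groups were separated by the narrow gap between shTRIP6 replicate 2 and shControl replicate 1 (log2 fold change -0.36 ± 0.07, edgeR adjusted p = 1.55e-04).

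ADAM12 and ADAM19, known as the meltrins alpha and beta after their study in myoblasts, moved in opposite directions. ADAM19 (chr5:157395534-157575775, minus strand, protein-coding), a sheddase of neuregulins, stood at 239, 242 and 243 CPM in shTRIP6, against 77.0, 70.9 and 73.1 CPM in shControl. It was 3.27-fold higher, with a log2 fold change of 1.71 ± 0.05 (edgeR adjusted p = 6.40e-16). ADAM12 (chr10:126012381-126388455, minus strand, protein-coding), a sheddase of heparin-binding EGF-like growth factor, stood at 0.314, 0.288 and 1.09 CPM in shTRIP6, against 47.7, 43.5 and 44.5 CPM in shControl. All shTRIP6 libraries were near 0, replicate 3 being the highest of them, and the log2 fold change was -6.32 ± 0.20 (adjusted p = 3.33e-15), or -7.20 without that library. ADAM8, known from leukocytes and invasive tumours, stood at 2.64, 2.05 and 1.86 CPM in shTRIP6, against 1.21, 1.61 and 1.16 CPM in shControl (log2 fold change 0.72 ± 0.29, edgeR adjusted p = 0.0390). That call was lost when shTRIP6 replicate 1 or 2, or shControl replicate 1 or 3, was left out and with the replicate number as a block, with adjusted p = 0.0280 to 0.173 over the alternatives.

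ADAM11, ADAM22 and ADAM23, which lack a working catalytic site and act as adhesion receptors or LGI receptors in neurons, were all higher. ADAM23 stood at 9.23, 8.25 and 9.55 CPM in shTRIP6, against 4.94, 5.14 and 5.43 CPM in shControl, without overlap (log2 fold change 0.80 ± 0.14, edgeR adjusted p = 7.17e-05). ADAM11 averaged 17.3 ± 1.46 CPM in shTRIP6 and 12.0 ± 3.07 CPM in shControl (log2 fold change 0.52, edgeR adjusted p = 3.99e-03). ADAM22 averaged 29.5 ± 0.979 CPM in shTRIP6 and 25.1 ± 1.86 CPM in shControl (log2 fold change 0.23). Its adjusted p was 0.0175, with a range of 2.31e-03 to 0.0757 over the alternatives. ADAM21, a gene known mainly from testis, stood at 0.659, 0.192 and 0.450 CPM in shTRIP6, against 0.504, 0.803 and 1.97 CPM in shControl. Its libraries overlapped and its call (log2 fold change -1.33 ± 0.53, edgeR adjusted p = 0.0393) was lost without shControl replicate 3, where the adjusted p was 0.391 and the log2 fold change was -0.59.

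**Figure D3:**
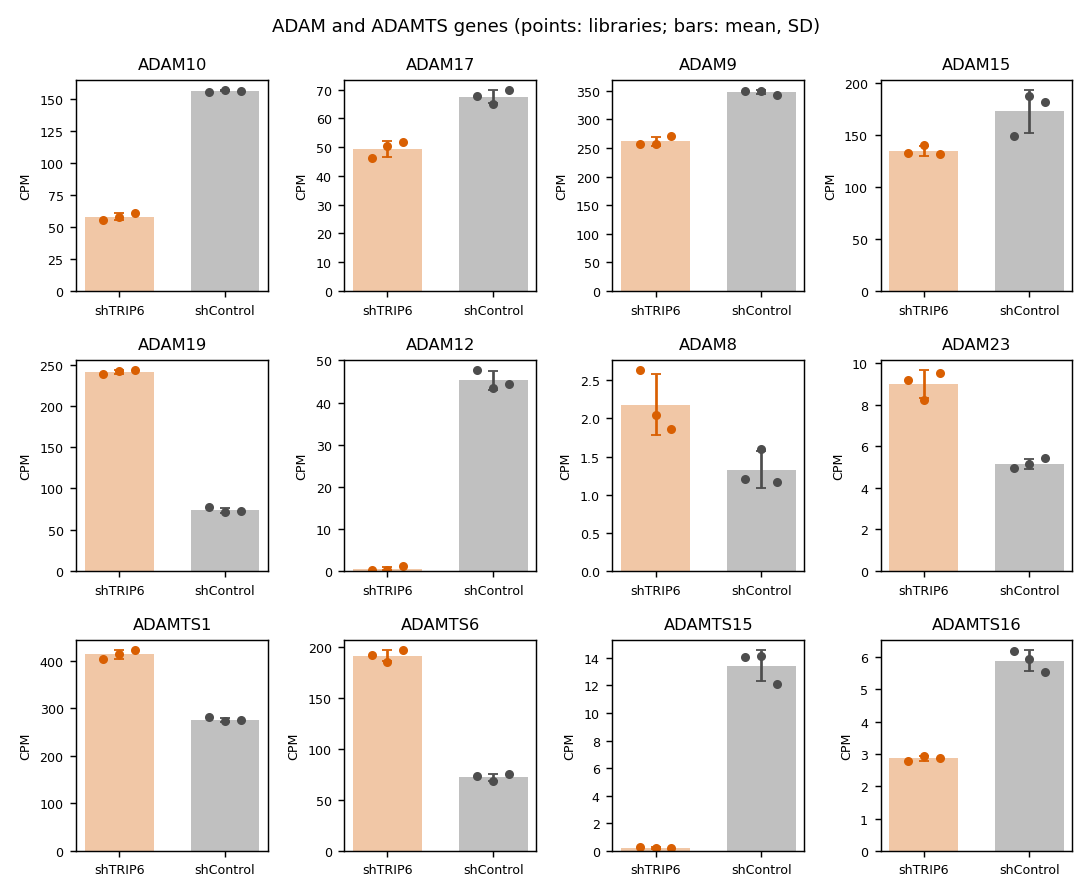
CPM of 8 ADAM and 4 ADAMTS genes in each library (points), with the group mean as a bar from 0 and the SD as an error bar, shTRIP6 at left and shControl at right in each panel. ADAM19, ADAM8, ADAM23, ADAMTS1 and ADAMTS6 are higher in shTRIP6, the other 7 genes are lower, and ADAM12 and ADAMTS15 are close to 0 in shTRIP6.

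Of the 11 tested ADAMTS genes, 2 were higher, 4 were lower and 5 were not called. The share called, 54.5%, was below the 60.1% over all genes tested. ADAMTS1 (chr21:26835747-26845409, minus strand, protein-coding), which cuts the proteoglycans versican and aggrecan, stood at 405, 414 and 423 CPM in shTRIP6, against 281, 273 and 275 CPM in shControl. The groups did not overlap (log2 fold change 0.58 ± 0.04, edgeR adjusted p = 7.13e-10). ADAMTS6 (chr5:65148736-65481920, minus strand, protein-coding), which acts on fibrillin microfibrils, stood at 193, 186 and 197 CPM in shTRIP6, against 73.4, 68.7 and 75.3 CPM in shControl. It was 2.65-fold higher (edgeR adjusted p = 3.23e-14). ADAMTS10, the closest relative of ADAMTS6 and also associated with microfibrils, was not called (edgeR adjusted p = 0.628). It averaged 10.3 ± 0.855 CPM in shTRIP6 and 10.9 ± 1.93 CPM in shControl.

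ADAMTS15 (chr11:130448974-130476641, plus strand, protein-coding), another protease of versican and aggrecan, stood at 0.282, 0.192 and 0.193 CPM in shTRIP6, against 14.0, 14.1 and 12.1 CPM in shControl. It was close to absent in all shTRIP6 libraries (log2 fold change -5.89 ± 0.22, edgeR adjusted p = 4.84e-14), in the opposite direction to ADAMTS1. ADAMTS16 stood at 2.79, 2.94 and 2.86 CPM in shTRIP6, against 6.18, 5.94 and 5.53 CPM in shControl (log2 fold change -1.04 ± 0.17, edgeR adjusted p = 4.28e-05). ADAMTS12, which cuts cartilage oligomeric matrix protein, stood at 0.126, 0.0320 and 0.289 CPM in shTRIP6, against 2.45, 2.05 and 2.26 CPM in shControl (log2 fold change -3.89 ± 0.47, edgeR adjusted p = 9.98e-07). Without shTRIP6 replicate 3, the highest of its group, its log2 fold change was -4.75. ADAMTS7, its closest relative with the same substrate, averaged 4.36 ± 0.238 CPM in shTRIP6 and 3.28 ± 0.544 CPM in shControl and was not called (adjusted p = 0.0718).

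ADAMTS14, a protease that trims procollagens, stood at 0, 0.0320 and 0.0643 CPM in shTRIP6, against 0.907, 0.610 and 0.485 CPM in shControl (edgeR adjusted p = 1.02e-04). It had 3 counts over the shTRIP6 libraries, 2 of them in replicate 3, and 61 over the shControl libraries, so the scaled ratio of shControl over shTRIP6 was 20.9 with a 95% counting interval of 6.81 to 104. ADAMTS3, with the same role, averaged 0.297 ± 0.146 CPM in shTRIP6 and 0.458 ± 0.145 CPM in shControl and was not called (adjusted p = 0.348). Also not called were ADAMTS13, which cuts von Willebrand factor, at 1.67 ± 0.529 CPM in shTRIP6 and 1.01 ± 0.234 CPM in shControl (adjusted p = 0.0776), and ADAMTS18, at 0.543 ± 0.205 CPM in shTRIP6 and 0.345 ± 0.206 CPM in shControl (adjusted p = 0.324).

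Levels of different genes were set side by side per kb of annotated exon, which overstates the length of genes with many transcript forms and so understates their level. In shTRIP6 the order began with TIMP3 at 435 ± 5.06 CPM per kb, TIMP2 at 106 ± 2.39, TIMP1 at 80.7 ± 2.87, MMP14 at 59.4 ± 1.43, ADAMTS1 at 58.6 ± 1.29, ADAM9 at 37.8 ± 1.19, ADAM19 at 31.3 ± 0.293 and ADAMTS6 at 22.4 ± 0.657 CPM per kb. In shControl it began with TIMP3 at 439 ± 15.3 CPM per kb, TIMP2 at 220.1 ± 9.72, TIMP1 at 80.4 ± 2.39, MMP14 at 51.6 ± 1.05, ADAM9 at 50.3 ± 0.535, ADAMTS1 at 39.1 ± 0.592, ADAM15 at 26.2 ± 3.11 and MMP15 at 13.0 ± 0.544 CPM per kb. MMP14 and ADAMTS1 overlapped in the shTRIP6 libraries, and ADAM10 and ADAM19 overlapped in the shControl libraries, at 9.69 ± 0.0334 and 9.56 ± 0.399 CPM per kb. Of the 40 tested genes, ADAM19 took place 7 in shTRIP6 and place 10 in shControl, ADAM10 place 14 in shTRIP6 and place 9 in shControl, and TIMP4 place 34 in shTRIP6 and place 14 in shControl.

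**Figure D4:**
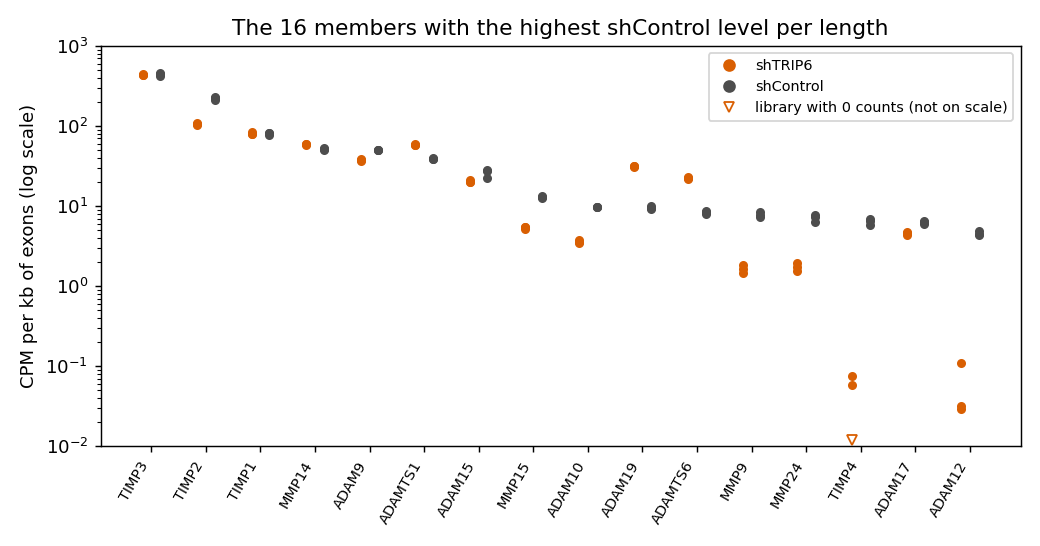
Level per exon length (CPM per kb, log scale) of the 16 genes with the highest shControl means, with 1 point per library, shTRIP6 left of shControl for each gene, and an open triangle for a library with 0 counts. TIMP3, TIMP2 and TIMP1 lead in both groups, ADAM19 and ADAMTS6 stand above their shControl points, and TIMP4 and ADAM12 lie lowest in shTRIP6, with means of 0.0448 and 0.0573 CPM per kb.

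The summed levels, given as a description with no test, were dominated by a few genes. The 4 TIMPs together stood at 622 ± 5.98 CPM per kb in shTRIP6 and 746 ± 27.8 CPM per kb in shControl, and all MMPs together at 76.6 ± 1.99 CPM per kb in shTRIP6 and 89.4 ± 1.23 CPM per kb in shControl (SD, n = 3 each). The ratio of summed TIMP to summed MMP level was 8.12 ± 0.162 in shTRIP6 and 8.35 ± 0.425 in shControl, with overlapping libraries, so both sums were lower while their ratio differed by less than its spread in shControl. MMP14 made up 77.5% of the summed MMP level per kb in shTRIP6 and 57.7% in shControl. Within the TIMP sum, TIMP3 made up 70.0% in shTRIP6 and 58.9% in shControl, and TIMP2 made up 17.0% in shTRIP6 and 29.5% in shControl. Summed ADAM transcripts stood at 804 ± 12.3 CPM in shTRIP6 and 908 ± 16.1 CPM in shControl, and summed ADAMTS transcripts at 627 ± 13.8 CPM in shTRIP6 and 387 ± 5.03 CPM in shControl. ADAMTS1 and ADAMTS6 held 96.5% to 96.8% of the ADAMTS sum in shTRIP6 and 89.4% to 90.3% in shControl, and the other ADAMTS genes summed to 19.6 to 22.6 CPM in shTRIP6 and 37.5 to 40.5 CPM in shControl.

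The 6 genes at 5% or less of their shControl mean were TIMP4 at 0.695%, ADAM12 at 1.25%, MMP8 at 1.46%, MMP28 at 1.60%, ADAMTS15 at 1.66% and ADAMTS14 at 4.81%. They were 6 of the 40 tested, where 3.36% of all tested genes were at or under this limit. Of these 6, only ADAM12 had a shTRIP6 library over the low-count filter, replicate 3 at 1.09 CPM. All 6 passed the filter through their shControl level, so this count is given as a description. The next above the limit were ADAMTS12 at 6.60% and MMP1 at 7.85%. Of the 12 nearest tested genes on either side of these 6, 7 were called lower, 2 higher and 3 neither. Over all genes tested, 31.2% were called lower and 29.0% higher. Of the 12, 3 were themselves at 5% or less. Beside TIMP4, PPARG, which encodes a nuclear receptor of fat metabolism, averaged 1.35 ± 0.433 CPM in shTRIP6 and 37.2 ± 2.07 CPM in shControl (log2 fold change -4.77, edgeR adjusted p = 1.33e-15). On the other side of TIMP4, TAMM41 was at 73.2% of its shControl mean. ADAM12 lay between C10orf90, at 2.20% of its shControl mean, and FANK1, at 6.89%. MMP28 lay beside RASL10B, a small GTPase gene with 0 counts in shTRIP6 and at least 72.0-fold lower there (taking 3 counts over the group as its floor). On the other side of MMP28, CCL5 was at 83.1% of its shControl mean and was not called. TAF15, whose span overlaps MMP28, was at 88.1%. MMP8 and MMP1 lie 62870 bases apart on chromosome 11 with no tested gene between them, although the untested MMP10 lies there. On the other side of MMP8 the nearest tested gene was TMEM123, 241411 bases away. TMEM123 averaged 411 ± 8.56 CPM in shTRIP6 and 409.7 ± 23.8 CPM in shControl. ADAMTS15 and ADAMTS14 had no such neighbour, since ZBTB44 and SNX19 beside ADAMTS15 had log2 fold changes of 0.30 and 0.07 and PALD1 and SGPL1 beside ADAMTS14 had 0.76 and -0.37.

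RefSeq promoter sequences (GRCh38.p14) were at hand for 39 of the 69 genes, 25 of them tested, and the 250 bases before the start were read in each. The windows of a pair of nearly absent genes, ADAM12 and ADAMTS14, and of a pair of strong rises, ADAM19 and ADAMTS6, are shown 5′ to 3′ with each CpG in capitals, because they show how CpG content differed among genes that moved far. None of these 4 windows overlaps an annotated exon in GENCODE release 29. They lie at chr10:126388478-126388727 (minus strand) for ADAM12, chr10:70672256-70672505 (plus strand) for ADAMTS14, chr5:157575776-157576025 (minus strand) for ADAM19 and chr5:65481921-65482170 (minus strand) for ADAMTS6.
ADAM12: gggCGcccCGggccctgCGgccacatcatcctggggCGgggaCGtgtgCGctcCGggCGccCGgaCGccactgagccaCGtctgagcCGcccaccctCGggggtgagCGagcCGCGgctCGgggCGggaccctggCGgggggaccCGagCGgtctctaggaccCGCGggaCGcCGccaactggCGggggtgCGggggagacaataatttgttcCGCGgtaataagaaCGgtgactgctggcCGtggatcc
ADAMTS14: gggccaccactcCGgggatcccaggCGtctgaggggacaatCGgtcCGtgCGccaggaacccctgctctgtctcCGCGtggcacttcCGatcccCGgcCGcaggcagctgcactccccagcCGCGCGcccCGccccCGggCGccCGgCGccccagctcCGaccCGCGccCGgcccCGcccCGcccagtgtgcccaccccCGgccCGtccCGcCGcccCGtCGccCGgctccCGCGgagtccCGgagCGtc
ADAM19: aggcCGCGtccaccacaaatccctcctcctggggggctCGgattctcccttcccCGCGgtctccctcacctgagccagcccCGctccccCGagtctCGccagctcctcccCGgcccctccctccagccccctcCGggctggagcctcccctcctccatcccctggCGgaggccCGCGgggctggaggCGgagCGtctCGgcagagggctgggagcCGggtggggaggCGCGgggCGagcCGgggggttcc
ADAMTS6: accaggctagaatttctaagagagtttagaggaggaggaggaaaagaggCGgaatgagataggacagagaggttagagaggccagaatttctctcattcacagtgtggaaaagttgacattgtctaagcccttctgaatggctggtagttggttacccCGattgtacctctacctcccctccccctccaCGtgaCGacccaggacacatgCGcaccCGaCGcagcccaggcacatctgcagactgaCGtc
ADAM12 had 31 CpG and ADAMTS14 had 35, with ratios of observed CpG to the number that the C and G content gives of 0.927 and 0.921, while ADAM19 had 21 CpG (0.586) and ADAMTS6 had 8 (0.466). The other nearly absent genes in the table went the other way, since TIMP4 stood at 0.447 and MMP8 had no CpG in its window. The median ratio was 0.684 over these 4 nearly absent genes, 0.659 over 7 higher genes, 0.877 over 7 other lower genes, 0.743 over 7 genes not called and 0.556 over all 27305 promoters. Genes called higher and genes called lower overlapped over the range of these ratios. Windows were counted from the RefSeq start, and some of those in the medians lie in exons of GENCODE release 29. All 250 bases do so for TIMP4, ADAM10, ADAM15 and ADAMTS13, and 49 for MMP8, so their ratios are not those of upstream sequence alone.

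**Figure D5:**
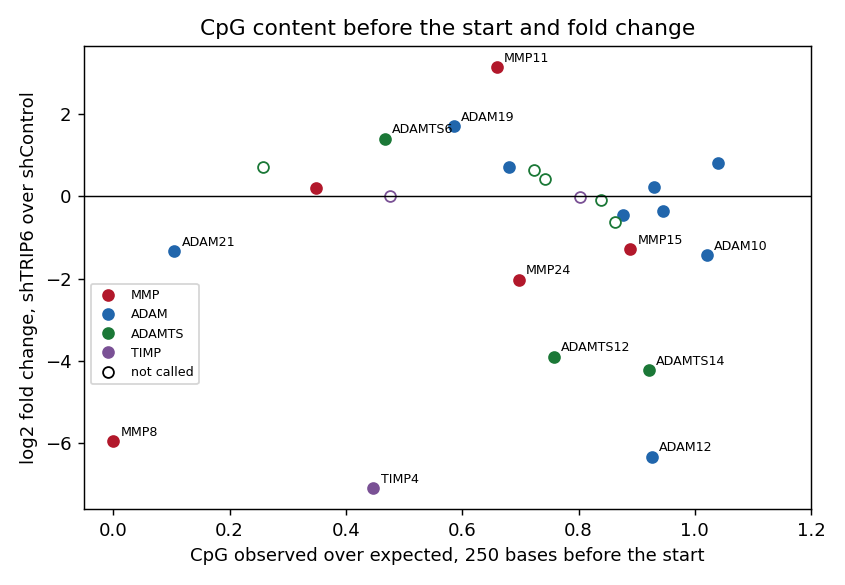
Observed over expected CpG in the 250 bases before the start (x axis) and log2 fold change of shTRIP6 over shControl (y axis) for the 25 tested genes with a RefSeq promoter, coloured by family, with open points for genes not called. Nearly absent genes are spread along the x axis, with MMP8 at 0 and ADAM12 at 0.927.

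Many MMP promoters are known for AP-1 sites, which FOS and JUN proteins bind. The AP-1-like letters TGANTCA, with any base allowed in the middle, were in 4 of the 39 windows, beside 6.60% of all 27305 promoters. The motif reads the same on both strands, with no other motif overlapping it in the search. Its middle base was G in MMP7 alone, and A in ADAMTS12, MMP10 and MMP20. Of these 4 genes, 1, ADAMTS12, was tested. No promoter sequence was at hand for MMP1, MMP2, MMP3, MMP9 and MMP28, among other tested genes, so these were not searched. The 27 bases around each match are shown with the motif in capitals, because 3 of the 4 belong to the MMP cluster on chromosome 11. These 3 genes were too low to be tested, unlike MMP1, MMP3 and MMP8 of that cluster. They lie at chr5:33892058-33892084 for ADAMTS12, chr11:102530798-102530824 for MMP7, chr11:102780679-102780705 for MMP10 and chr11:102625428-102625454 for MMP20, all on the minus strand.
ADAMTS12: cactgtcagcTGAATCActcccctttt
MMP7: aacactcaaaTGAGTCAcctatttcca
MMP10: aacacatgcaTGAATCAtactgttggt
MMP20: gtttgagacaTGAATCAtccttgctcg
The motif began 67 bases before the RefSeq start in MMP7 and MMP10, 84 in ADAMTS12 and 112 in MMP20. In ADAMTS12, however, 202 bases of the window lie in GENCODE exons, and the match lies among them. The annotated gene reaches to chr5:33892192 on the minus strand, so the ADAMTS12 match is not upstream of it. The letters TGACGTCA were in 0 of the 39 windows (1.77% of all promoters), ACATTCCA or its reverse complement in 0 (1.00%), and CACGTG in 5 (6.49%). A match is a run of letters and not a measured binding site.

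Counts in the lists of related genes that follow are descriptions, beside 60.1% of all genes tested that were called (29.0% higher and 31.2% lower). Of 13 AP-1 and ETS factors linked to MMP promoters, 69.2% were called, with 5 higher, 4 lower and a median log2 fold change of 0.06. JUNB fell most, to 19.7, 19.9 and 18.6 CPM in shTRIP6 against 99.3, 94.0 and 93.0 CPM in shControl (log2 fold change -2.30 ± 0.06, edgeR adjusted p = 3.52e-16). ETS2 and JUND fell by 1.58 and 1.23 on the log2 scale. FOSL1, an AP-1 partner known from invasive cells, averaged 809.6 ± 21.7 CPM in shTRIP6 and 458 ± 60.2 CPM in shControl (log2 fold change 0.82). ETV1 and ETS1 rose by 0.74 and 0.57.

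Of 12 tested genes that mature or guide ADAMs, 4 were higher and 3 lower (median log2 fold change 0.08), and the 58.3% called was near the share over all genes. TSPAN14, TSPAN17 and TSPAN33, tetraspanins that carry ADAM10 to the surface, rose by 0.71, 0.42 and 0.41 on the log2 scale. The other tetraspanins of the list, TSPAN5, TSPAN10 and TSPAN15, were not called, with log2 fold changes of -0.03, 0.42 and -0.18. PCSK6, a furin-type protease, stood at 0.157, 0.256 and 0.129 CPM in shTRIP6, against 6.45, 7.16 and 6.47 CPM in shControl. FURIN itself fell by 0.48 and RHBDF2, an ADAM17 partner, by 0.58. Of 7 epidermal growth factor receptor ligands released by ADAMs, 1 was higher and 4 were lower (71.4% called, median -0.39). HBEGF averaged 59.5 ± 0.996 CPM in shTRIP6 and 36.6 ± 2.49 CPM in shControl (edgeR adjusted p = 3.27e-08), while BTC, EREG and TGFA fell by 1.56, 0.78 and 0.39.

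Of 9 tested genes for other inhibitors, inducers and clearance receptors, 2 were higher and 5 were lower (77.8% called, median log2 fold change -0.46). LRP1, a clearance receptor for MMP and TIMP complexes, rose by 0.18 on the log2 scale. SPOCK1, a proteoglycan of the testican family, averaged 4.91 ± 1.09 CPM in shTRIP6 and 108 ± 6.42 CPM in shControl (log2 fold change -4.46, edgeR adjusted p = 2.68e-17). TFPI2, an inhibitor of serine proteases, and BSG, known as an inducer of MMPs, fell by 2.64 and 0.61.

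Of 5 tested ADAMTS-like genes, whose products resemble ADAMTS proteins but have no protease domain, 3 were higher and 1 was lower (80.0% called, median log2 fold change 0.77). ADAMTSL4 and PAPLN rose by 1.09 and 0.77, and THSD4 fell by 1.39. Of 3 tested proteoglycan and link protein substrates, versican (VCAN) averaged 66.6 ± 2.26 CPM in shTRIP6 and 29.8 ± 2.83 CPM in shControl (log2 fold change 1.16, edgeR adjusted p = 7.99e-11), brevican (BCAN) fell by 0.55, and the median was 0.12 (66.7% called). VCAN was thus higher in the same libraries in which its protease gene ADAMTS1 was higher and its protease gene ADAMTS15 lower. Of 5 tested genes of other metzincin proteases, 0 were higher and 4 were lower (80.0% called). BMP1, which trims procollagen at its C-terminal end, averaged 17.4 ± 1.11 CPM in shTRIP6 and 69.5 ± 5.14 CPM in shControl. Its relative TLL1 averaged 0.243 ± 0.147 CPM in shTRIP6 and 8.37 ± 1.13 CPM in shControl. PAPPA2, a protease of insulin-like growth factor binding proteins, had 1 count over the shTRIP6 libraries and 198 over the shControl libraries, a scaled ratio of shControl over shTRIP6 of 203 with a 95% counting interval of 36.1 to 8070.

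The other 29 genes were too low to be tested. Of these, 16 had 0 counts in all 6 libraries, which allows up to 0.0318 CPM in shTRIP6 and 0.0327 CPM in shControl. They included the collagenase gene MMP13, the enamel protease gene MMP20, ADAM33, the aggrecanase gene ADAMTS8, the procollagen protease gene ADAMTS2 and ADAM2, a sperm protein gene. The other 13 had a few counts, and ADAMTS5 and MMP23A alone among them reached 10 counts in a library, with a highest value of 15. ADAM28 had 0 counts over the shTRIP6 libraries and 14 over the shControl libraries, which is at least 4.80-fold lower in shTRIP6 when 3 counts over the group are taken as the floor. MMP7, matrilysin, had 0 and 8 counts, at least 2.72-fold lower on the same floor. Both folds take the few shControl counts as exact, so they are not strict bounds. MMP23B had 2 counts in shTRIP6 and 11 in shControl, a scaled ratio of shControl over shTRIP6 of 5.64 with a 95% counting interval of 1.23 to 52.4. Reads of MMP23B and its near-identical copy MMP23A may be split between them, so both are uncertain.

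Exons of 12 tested genes overlap those of another gene, and 9 of the 12 were called, beside 60.1% of all genes tested. Whether the counting used strand is not stated in the labels, so reads of opposite-strand partners cannot be told apart. The largest overlap was 35.2% of exon bases, for MMP25 with MMP25-AS1, which averaged 2.18 CPM in shTRIP6 and 3.06 CPM in shControl. For MMP9 it was 18.4% with SLC12A5-AS1, which averaged 2.28 CPM in shTRIP6 and 6.31 CPM in shControl. For MMP24 it was 18.1% with MMP24OS, which averaged 32.0 CPM in shTRIP6 and 43.6 CPM in shControl. MMP19 shares 17.4% with TMEM198B, which averaged 4.95 CPM in shTRIP6 and 5.49 CPM in shControl. All these partners lie on the opposite strand. TIMP2 shares 3.52% with CEP295NL, MMP1 7.61% with WTAPP1, ADAM15 4.65% with DCST1 and ADAM19 0.805% with CYFIP2.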

How the data were processed

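The authors deposited 1 file per library of whole-number read counts by gene symbol, without normalization. The submitters' processing notes list hg38, TopHat2, limma and edgeR; what counted the reads, on which annotation and whether by strand, is not given in the sources. Groups were taken from the labels. In R 4.3.3 with edgeR 4.0.16, all symbols were filtered with filterByExpr (minimum count 10, about 0.322 CPM here), scaled by TMM (factors 0.992 to 1.01) and tested by quasi-likelihood with group as the only term, and Benjamini-Hochberg adjustment ran over all 15473 tested genes. Chi-square per degree of freedom between libraries was 3.05 to 4.59 within shTRIP6, 4.81 to 11.7 within shControl and 118 to 135 across the groups. CPM used TMM-scaled library sizes. An SE is the log2 fold change divided by the square root of F. Means carry the SD with n = 3. Floors of 3 counts and counting intervals cover counting error alone, as PCR copies of a molecule are counted as separate reads. A floor covers the shTRIP6 counts only and takes the shControl counts as exact. Exon lengths, overlaps and neighbours came from GENCODE release 29 (GRCh38), in which all 69 genes were found, and promoters from RefSeq (GRCh38.p14).

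The text names each gene of the families whose mean is at least 1 CPM, or at least 0.3 CPM if called, and up to 3 rises and 3 falls by size in each related list (called, mean of 1 CPM or more); 1 such rise is not reported here. The genes and lists were chosen with earlier results of these data known. Alternatives were scaling by RLE, by upper quartile or not at all, no filter, 1 CPM in 3 libraries, DESeq2 1.42.0, limma-voom (limma 3.58.1), a block for the replicate number, dropping each library in turn and, added after seeing the data, genes with no overlapping exons.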

Additional observations from a re-analysis of the deposited data

How the results depend on the processing

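Over the 14 alternatives planned, the genes of these families called higher numbered 9 to 12 and those called lower 16 to 20, beside 11 and 19 as reported. Leaving out each library gave 9 to 11 higher and 18 to 19 lower, and 8460 to 9478 calls over all genes (4018 to 4559 higher and 4402 to 4919 lower). With only the genes that have no overlapping exons, added after seeing the data, 5999 genes were called (2822 higher and 3177 lower), with 9 of these families higher and 12 lower, fewer by construction since fewer genes were tested. Upper-quartile scaling moved the median of all genes by 0.05 on the log2 scale.

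With the replicate number as a block, 28 genes of these families were called (10 higher and 18 lower), all 28 shared with the fit without it, and 9079 over all genes. Same-numbered libraries did not deviate together (r of -0.023, -0.045 and -0.026), so the numbers do not pair the samples. Of the 41 genes followed, TRIP6 among them, 36 kept their side of the threshold, and no gene called as reported turned its direction. Of those not called, 4 changed sign under some alternatives, with log2 fold changes of -0.22 to 0.03 for ADAMTS10, -0.10 to 0.43 for MMP25, -0.02 to 0.05 for TIMP1 and -0.04 to 0.04 for TIMP3. ADAM8, ADAM22 and ADAM21 lost their calls under some alternatives. ADAM8 did so under the block (edgeR adjusted p = 0.0613), and without shTRIP6 replicate 1 or 2 or shControl replicate 1 or 3 (up to 0.173). ADAM22 did so without shTRIP6 replicate 1 (0.0668) or shControl replicate 3 (0.0757). ADAM21 did so in limma-voom (0.0690), under the block (0.0615), and without shTRIP6 replicate 2 (0.172), shTRIP6 replicate 3 (0.0969) or shControl replicate 3 (0.391). ADAMTS7 passed with upper-quartile scaling (0.0459) and without shControl replicate 1 (0.0237), and ADAMTS13 without shTRIP6 replicate 1 (0.0404). At this depth, the filter left genes under about 0.322 CPM in both groups untested.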
